A study of Gallus gallus with 4 samples.

Results

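The genes described here are 36 chicken genes that the study's pathway table files under MAPK signaling, ErbB signaling, adrenergic signaling in cardiomyocytes or cardiac muscle contraction. They were chosen from the 1251 genes of that table, which holds genes with at least 1 exon part whose usage differed between alcohol-exposed and control headfolds in the study's own DEXSeq test at an adjusted p below 0.1. Of the 90 genes with at least 1 of these 4 entries, 54 were left out because they also had entries for ribosome biogenesis, cell cycle, DNA repair, basal transcription, metabolism, endocytosis or cell-cell interactions. The 36 genes that remained are among 24513 genes counted in the series, and they were split into 900 of its 220717 exon parts, of which 89 were listed in the pathway table. An exon part is a stretch of exon cut wherever the annotated transcripts of a gene differ. By entry, 18 genes belonged to MAPK signaling, 3 to ErbB signaling and 15 to adrenergic signaling in cardiomyocytes, and 8 of those 15 were also filed under cardiac muscle contraction. No gene carried entries from more than 1 of the MAPK, ErbB and cardiac sets. The alcohol comparison itself chose the genes, so every alcohol and control value below is a description. The edgeR calls given for these genes are also descriptive and are not independent evidence of a difference.

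MAPK cascades relay signals from receptors at the cell surface through a chain of kinases to the nucleus, and they guide growth, fate choice and survival in embryonic tissue. ErbB proteins are receptor tyrosine kinases for the epidermal growth factor and neuregulin families, feed into MAPK cascades, and are known for roles in neural crest migration and heart development. Adrenergic signaling in cardiomyocytes acts through calcium entry and release, and cardiac muscle contraction covers the sarcomere proteins that respond to calcium and the ion pumps that restore the resting state. In the chick embryo the heart tube forms beneath the head at about the time the cranial neural folds close.

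The samples were cranial headfolds of Special black chicken embryos at Hamburger-Hamilton stage 8-9, incubated for 27 hr, with 3 to 4 somites in the sample labels and 4 to 7 somites in the study's methods. The alcohol group received 0.43 mmol ethanol, described in the methods as 52 mM for 90 min, and the control group received isotonic saline, and headfolds were taken 6 hr after exposure began. Each of the 2 samples in a group is described as a pool of 23 neural folds, and paired reads of 75 bases were made from poly-A selected RNA. The 2 alcohol samples were lanes of one sequencing run and the 2 control samples lanes of another, so an effect of alcohol and an effect of the run cannot be told apart.

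The alcohol lanes held 15388474 and 16991925 counts, and the control lanes held 20951322 and 20861872. Over genes, the 2 control lanes differed by little more than sampling noise, with a chi-square of 1.04 per degree of freedom. This was under the set limit of 1.1, so the control lanes were summed and counted as 1 sample. The alcohol lanes, at 5.68, were kept as 2 samples. Mitochondrial genes took 33.3% and 32.9% of counts in the alcohol lanes, against 44.2% in each control lane. Levels are given as TMM-normalised CPM, counts scaled to a common library total after allowing for RNA composition. With this scaling the median log2 difference over all 18093 tested genes was 0.01. Scaling by library size alone moves that median to 0.36, and 11 of the 36 genes then change sign. The part of the mitochondrial share in these results was not tested. The identifiers were not paired with gene names here, so genes are given by locus on the Galgal5 assembly and the headfold label was not checked against marker genes.

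All 36 genes passed the filter of at least 10 counts, with totals from 201 to 46545 over the 4 lanes. Levels between genes were compared per kilobase of exon. In control lanes the cardiac muscle contraction genes had the highest median, 94.2 CPM per kilobase, against 58.6 over all 15 cardiac genes. Medians were 5.15 for MAPK genes, 4.16 for ErbB genes and 4.60 over all tested genes. Over the other 1215 genes of the pathway table the median was 21.6. The left-out genes had medians of 16.8 for MAPK, 12.0 for ErbB and 128 for contraction. The 8 contraction genes ranged from 18.8 to 212 CPM per kilobase in control lanes. The MAPK genes ranged from 1.70 to 182.3, and the highest, on chromosome 23 from 3242123 to 3252831, lay far above the others of its set. MAPK and ErbB genes were long, with median spans of 62.9 kb and 99.6 kb, while the contraction genes had a median span of 13.99 kb. The median span was 7.96 kb over all tested genes and 16.2 kb over the other 1215 genes of the pathway table.

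Gene abundance, the sum of a gene's exon part counts, passed a false discovery rate of 0.1 in edgeR's quasi-likelihood test for 13 of the 36 genes, 8 higher and 5 lower in alcohol, beside 27.2% of all tested genes, 15.5% higher and 11.6% lower. Scaling by library size alone gave 20 higher and 3 lower, and DESeq2's size factors gave 5 higher and 6 lower. The lanes of the groups did not overlap for 28 of the 36 genes, beside 68.8% of all tested genes. The median log2 difference over the 36 genes was 0.03. The sets differed in which way their genes lay. In this fit all 5 genes that were lower at the threshold carried the cardiac muscle contraction entry. Of the 8 genes that were higher, 6 carried the MAPK entry, as did 18 of the 36 genes. Lower calls numbered 7 with a filter of at least 1 count and 10 with the 4 lanes as libraries. Only 6 contraction genes had a negative difference, so those calls included genes of other sets. In bulk tissue, fewer cells of a type and less RNA per cell cannot be told apart.

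**Figure D1:**
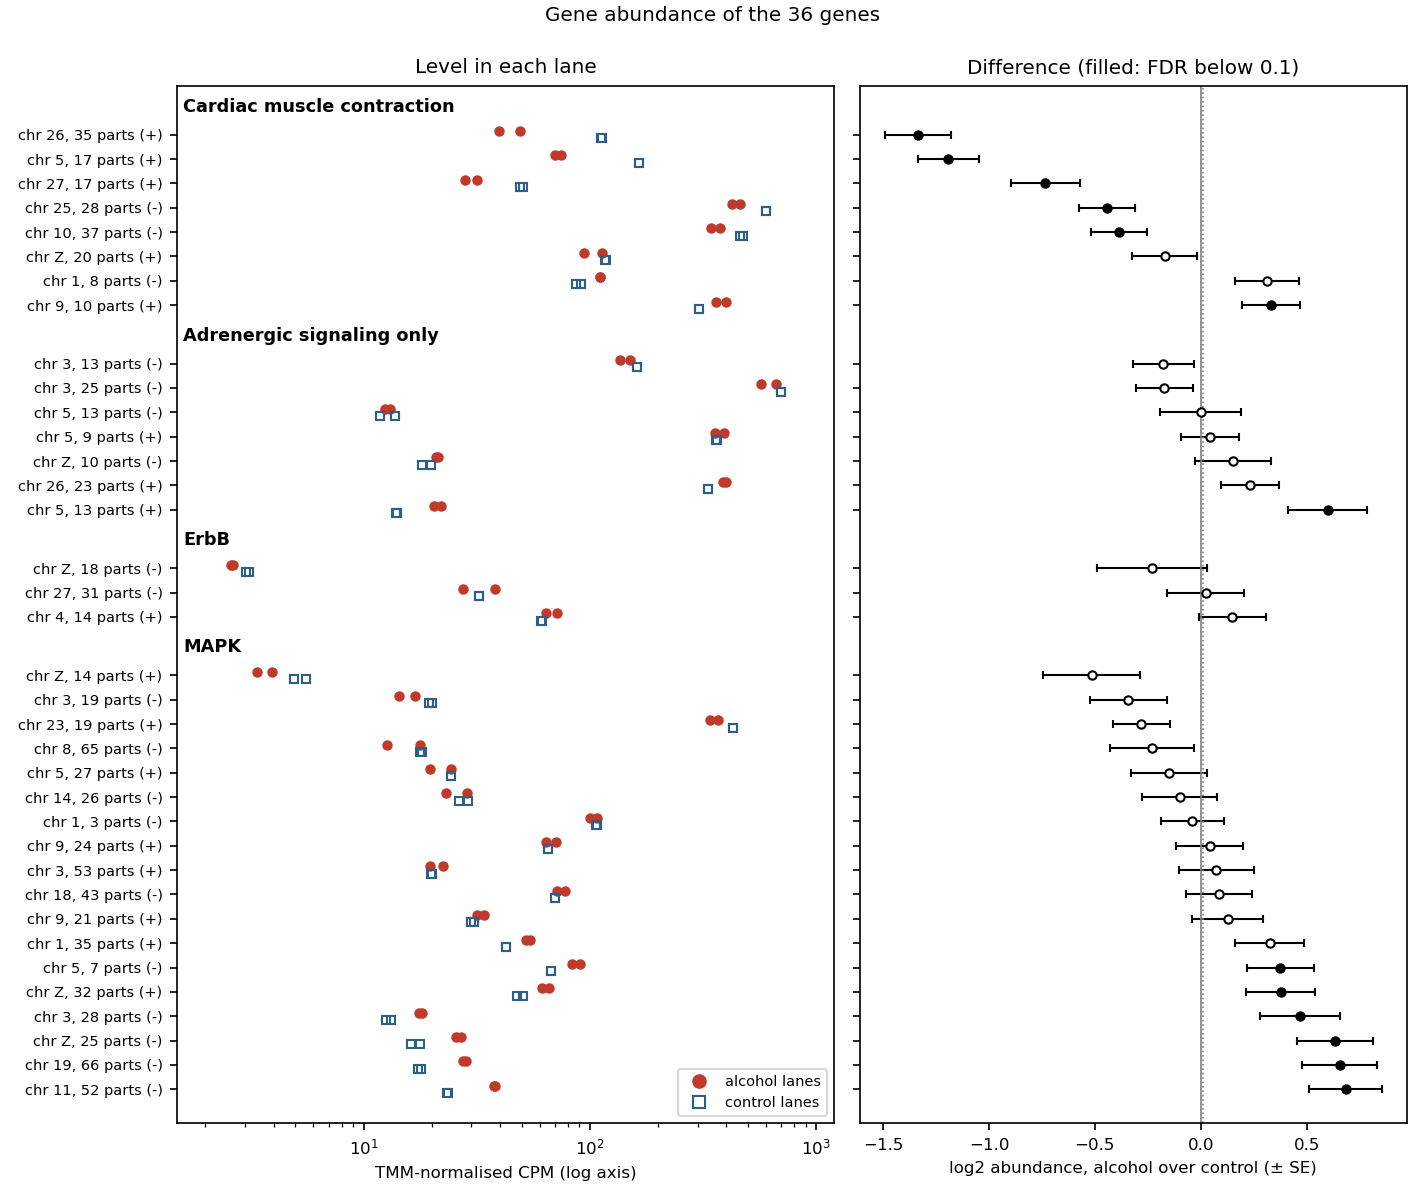
Level of each of the 36 genes in each lane in TMM-normalised CPM on a log axis (left) and the log2 abundance difference, alcohol over control, with its standard error (right), with genes grouped by pathway entry and given by chromosome, number of exon parts and strand. Filled points passed a false discovery rate of 0.1, and the dotted line is the median of all tested genes. The contraction genes run from -1.34 to 0.33 and the MAPK genes from -0.52 to 0.68, under TMM scaling.

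The largest difference was in ENSGALG00000000302, filed under both cardiac entries, on the plus strand of chromosome 26 from 796120 to 806432. It had 39.9 and 49.2 CPM in the alcohol lanes, against 113 and 112 CPM in the control lanes. The groups lay far apart, although the alcohol lanes also differed from each other by 0.30 on the log2 scale. Its log2 difference was -1.34 ± 0.16 (SE, back-calculated from the test statistic), which places the alcohol level at 0.396 of the control level. ENSGALG00000009844, also under both entries, on the plus strand of chromosome 5 from 32283463 to 32288278, had 70.5 and 74.6 CPM in alcohol lanes, against 166 CPM in each control lane, a log2 difference of -1.19 ± 0.15. The 2 lanes of each group were close for this gene.

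Another 3 contraction genes were lower by smaller amounts. The gene on chromosome 27 from 3015291 to 3020580 had 28.2 and 31.8 CPM in alcohol lanes, against 50.9 and 49.0 CPM in control lanes, a log2 difference of -0.73 ± 0.16. For the chromosome 25 gene, from 2103501 to 2119591, levels were 424 and 460 CPM in alcohol lanes, against 598 and 603 CPM in control lanes, a log2 difference of -0.44 ± 0.13. On chromosome 10, the gene from 4105084 to 4124081 had 376 and 342 CPM in alcohol lanes, against 476 and 463 CPM in control lanes, a log2 difference of -0.39 ± 0.13. In none of these did the lanes of the groups overlap. Under library-size scaling the 5 differences were -0.98, -0.84, -0.38, -0.09 and -0.03 in the order given, and the genes on chromosomes 25 and 10 no longer passed the threshold.

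The other 3 contraction genes had smaller differences of either sign. A chromosome 9 gene from 10307410 to 10329985 was higher, with 400 and 363 CPM in alcohol lanes, against 304 and 302 CPM in control lanes, a log2 difference of 0.33 ± 0.14 that passed the threshold but did not with DESeq2's size factors or without control replicate 2. On chromosome 1, the gene from 83773214 to 83787119 had 111 CPM in each alcohol lane, against 91.3 and 87.1 CPM in control lanes, a log2 difference of 0.31 ± 0.15 that did not pass the threshold. The Z chromosome gene from 9207194 to 9221258 had 94.3 and 114 CPM in alcohol lanes, against 116 and 118 CPM in control lanes. Its difference of -0.17 ± 0.15 did not pass the threshold under TMM and became 0.18 with library-size scaling. Over the 8 genes the median log2 difference was -0.41 under TMM scaling, with 6 lower, and -0.059 under library-size scaling.

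Genes with the adrenergic entry and no contraction entry had a median log2 difference of 0.04 under TMM scaling and 0.40 under library-size scaling. Of these 7 genes, 1 passed the threshold. That gene, on the plus strand of chromosome 5 from 53391115 to 53457568, had 22.0 and 20.4 CPM in alcohol lanes, against 13.9 and 14.1 CPM in control lanes, a log2 difference of 0.60 ± 0.18. The other 6 ran from -0.18 to 0.23. They include the gene with the highest level per kilobase of the 36, on chromosome 3 from 27205249 to 27217780, with 340.4 CPM per kilobase in control lanes. It had 667 and 573 CPM in alcohol lanes, against 702 and 697 CPM in control lanes. Its alcohol lanes differed from each other by more than its difference between groups, -0.17 ± 0.13.

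None of the 3 ErbB genes passed the threshold. The gene on chromosome 4 from 30725096 to 30824645 had 71.4 and 64.2 CPM in alcohol lanes, against 61.2 and 61.1 CPM in control lanes, a log2 difference of 0.15 ± 0.16. The pair of overlapping genes counted under a combined identifier on chromosome 27 from 5292832 to 5306850 had 27.6 and 38.1 CPM in alcohol lanes, against 32.5 and 32.2 CPM in control lanes, so the alcohol lanes lay on either side of the controls. The Z chromosome gene from 53958209 to 54246724 had the lowest level per kilobase of the 36, 0.83 CPM per kilobase in control lanes, and 2.64 and 2.59 CPM in alcohol lanes, against 3.04 and 3.11 CPM in control lanes, and counts of 44 to 55 per lane leave its difference of -0.23 with an SE of 0.26.

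Of the 18 MAPK genes, 6 were higher at the threshold and 0 were lower, beside 15.5% higher and 11.6% lower of all tested genes. The highest was ENSGALG00000003396, on the minus strand of chromosome 11 from 3421759 to 3524368, with 37.6 and 38.0 CPM in alcohol lanes, against 23.6 and 23.5 CPM in control lanes, a log2 difference of 0.68 ± 0.17. Each group's lanes nearly coincided. The gene on chromosome 19 from 9026613 to 9106170 had 28.2 and 27.4 CPM in alcohol lanes, against 17.4 and 17.9 CPM in control lanes, a log2 difference of 0.65 ± 0.18. The Z chromosome gene from 61011125 to 61071967 had 27.1 and 25.6 CPM in alcohol lanes, against 17.8 and 16.2 CPM in control lanes, a log2 difference of 0.63 ± 0.18. In these genes the alcohol lanes lay well above both control lanes, and with library-size scaling the differences were larger, at 1.04, 1.01 and 0.99.

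The remaining MAPK genes at the threshold were on chromosome 3 from 45383834 to 45456638, with a log2 difference of 0.47 ± 0.19, on chromosome 5 from 54600924 to 54613644, with 0.38 ± 0.16, and on the Z chromosome from 17406003 to 17470993 under a combined identifier, with 0.38 ± 0.16. With DESeq2's size factors the chromosome 5 and Z chromosome genes no longer passed, and without control replicate 1 the chromosome 3 and Z chromosome genes did not. Without control replicate 2 the chromosome 5 gene did not pass, and with a filter of at least 1 count the Z chromosome gene did not. DESeq2's Wald test gave 3 higher calls over all 36 genes. ENSGALG00000016781, on the plus strand of chromosome 1 from 133742880 to 133800008, had 52.03 and 54.52 CPM in alcohol lanes, against 42.5 and 42.6 CPM in control lanes, and its difference of 0.32 ± 0.16 did not pass. At the other end, the Z chromosome gene from 60313313 to 60436293 had 3.36 and 3.94 CPM in alcohol lanes, against 5.57 and 4.91 CPM in control lanes. That is a log2 difference of -0.52 ± 0.23 on 56 to 99 counts per lane, and it did not pass either. Over the 18 genes the median log2 difference was 0.08, with 11 higher and 7 lower.

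These differences can be set beside those between the lanes of a group. That spread may be technical, so it may not show variation between pools of embryos. Over the 36 genes the median absolute log2 difference was 0.12 between the alcohol lanes and 0.01 between the control lanes. The widest alcohol lanes differed by 0.49, in the MAPK gene on chromosome 8 from 5721919 to 5794586, which had 12.7 and 17.8 CPM in alcohol lanes, against 17.8 and 18.2 CPM in control lanes. For 13 of the 36 genes the alcohol lanes differed from each other by more than the groups did, and 0 of the 13 genes at the threshold were among them. With the control lanes summed, the test took its spread from the alcohol lanes, so genes with wide alcohol lanes were less likely to pass.

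The 54 genes left out for their other entries give the rest of each pathway set, and they came from the same table. Of all tested genes, 15.5% were higher and 11.6% lower at the threshold. Of the 9 left-out contraction genes, 7 were lower at the threshold and 0 were higher, with a median log2 difference of -0.51. They were shorter than the 8 contraction genes above, with a median span of 4.01 kb against 13.99 kb and a median of 7 exon parts against 18.5. Of the 26 left-out MAPK genes, 6 were higher at the threshold and 0 were lower, with a median of 0.13. The 15 left-out ErbB genes had 5 higher and 2 lower, with a median of 0.26, and the 17 left-out adrenergic genes, some of them also contraction genes, had 5 higher and 2 lower, with a median of 0.09. With library-size scaling the median of the left-out contraction genes was -0.15 and that of the left-out MAPK genes was 0.49. On that scaling the median was 0.43 for the 18 MAPK genes above and 0.36 over all tested genes.

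Exon part usage is the change of a part relative to its gene as a whole, the part itself included. Usage differences and their SEs from edgeR are on the natural-log scale, unlike the log2 abundance differences above. Of the 900 exon parts, 431 had enough counts for the test, including all 89 listed parts. Usage passed the false discovery rate of 0.1 in edgeR for 31 parts, beside 4.87% of all tested parts. Of these, 26 were higher, beside 4.36% of all tested parts, 5 were lower, beside 0.511%, and 28 were listed parts. Of the 342 tested parts that were not listed, 3 passed, or 0.877%. The listed parts comprised 57 with higher and 32 with lower usage in alcohol. Their median natural-log usage difference was 0.45, beside 0.51 over the other listed parts of the pathway table. The median was 0.27 over the 431 parts and 0.15 over all tested parts, most of which were not chosen for a usage difference. At the threshold, 31.5% of the listed parts of these genes passed, beside 36.9% of the other listed parts of the table. The calls at the threshold were 17 without control replicate 1 and 17 without control replicate 2, and a DEXSeq-type model fitted with DESeq2 gave 5. Every listed part kept its direction in each of these fits, which use the same lanes that chose the listed parts.

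The parts of higher and lower usage lay at different places in their genes. Each gene's parts were divided by order into 5 stretches from the 5′ to the 3′ end. Of the 32 listed parts with lower usage, 22 lay in stretch 5, and 14 were the last part of their gene. Of the 57 with higher usage, 49 lay in stretches 1 to 4. Over the 431 parts, median usage differences from stretch 1 to stretch 5 were 0.38, 0.43, 0.39, 0.34 and 0.01. Over all tested parts they were 0.27, 0.29, 0.28, 0.17 and -0.03, so the 3′ stretch had the lowest median in the whole series as well. Among the parts that were not listed, the median in stretch 5 was 0.04.

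**Figure D2:**
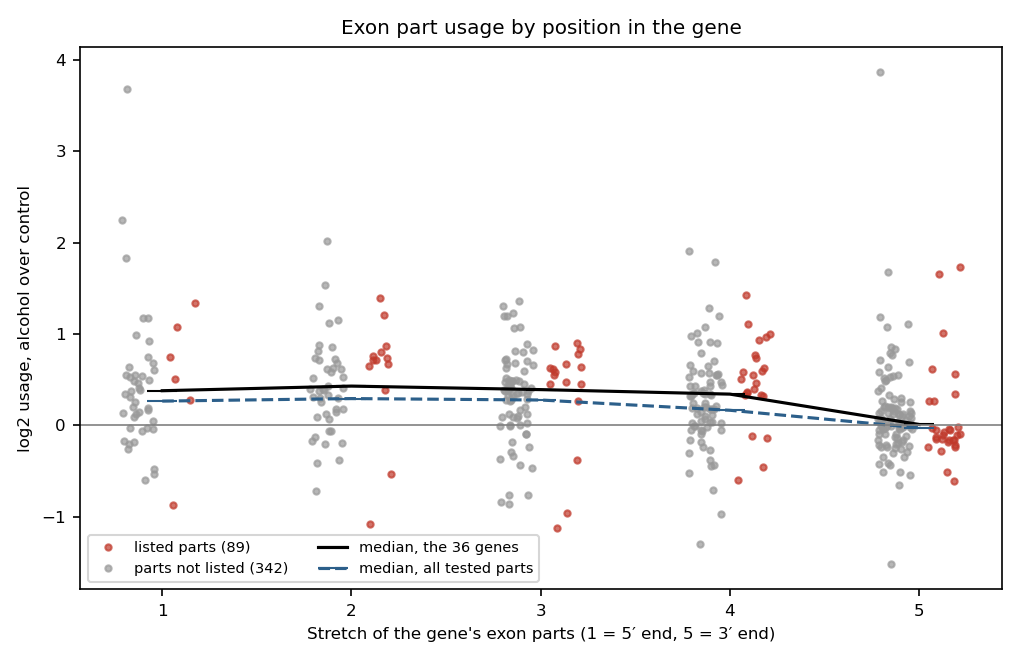
Usage difference, alcohol over control, of the 431 tested exon parts of the 36 genes, by stretch of the gene from the 5′ end (1) to the 3′ end (5), with listed parts in red and the others in grey. Values are natural logs, although the axis label reads log2. The solid line joins the medians of the 36 genes, 0.38 in stretch 1 and 0.01 in stretch 5, and the dashed line those of all tested parts, 0.27 and -0.03.

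Listed parts with lower usage also carried more of their gene's counts. They held a median of 50.9% of the counts of their gene, and 21 of the 32 held more than 30%. The listed parts with higher usage held a median of 1.53%, and 1 of the 57 held more than 30%. Large shares went with small differences, and by construction a part that makes up most of a gene can differ little from the gene as a whole. In the 22 lower parts of stretch 5 the median natural-log usage difference was -0.15, and in the 10 lower parts elsewhere it was -0.56.

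**Figure D3:**
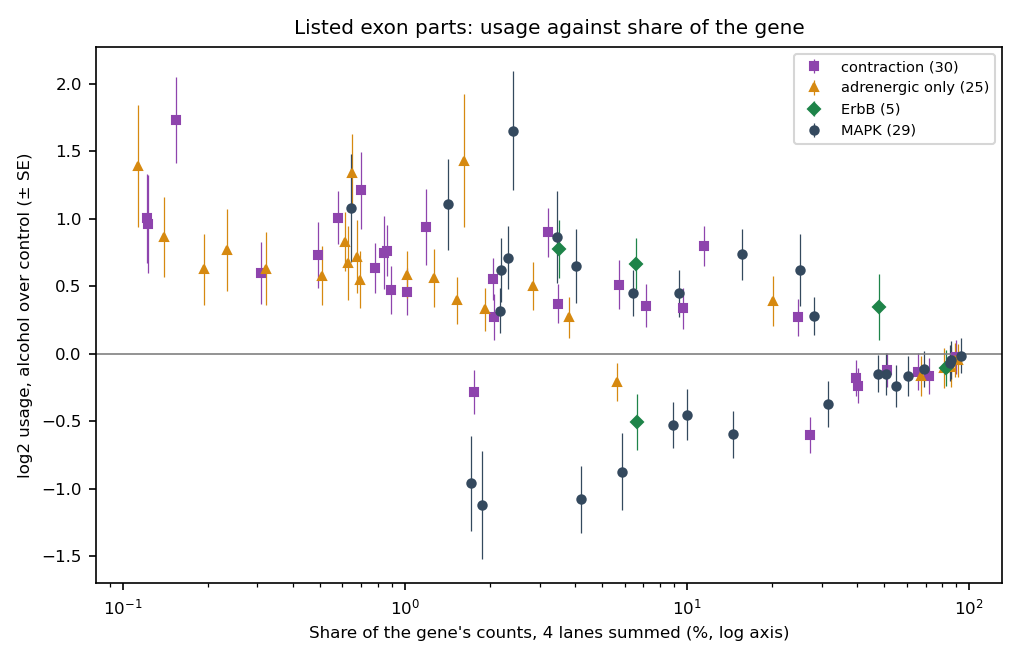
Usage difference, alcohol over control, with its standard error, of the 89 listed exon parts against the share of their gene's counts over the 4 lanes, in percent on a log axis, by pathway entry. Usage values are natural logs, although the axis label reads log2. Parts holding under 1% of their gene all lie above zero, and of the 22 parts holding over 30%, 21 lie below it.

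The contraction gene ENSGALG00000009844 had 8 tested exon parts and all 8 were listed. Its part 16 from the 5′ end, chromosome 5 from 32288124 to 32288266, held 17.1% and 17.5% of the gene's counts in alcohol lanes, against 31.0% and 32.4% in control lanes. That is a natural-log usage difference of -0.60 ± 0.14. Part 6, from 32284999 to 32285205, held 17.5% and 19.6% in alcohol lanes, against 7.84% and 8.85% in control lanes, a usage difference of 0.80 ± 0.15. The raw counts of part 6 were 205 and 270 in alcohol lanes, against 231 and 260 in control lanes, while part 16 had 201 and 241 in alcohol lanes, against 913 and 952 in control lanes. The gene's lower counts thus lay mainly in parts 15 and 16, and part 6 had similar counts in both groups. Part 8, from 32285933 to 32286070, had the highest usage difference among listed parts with at least 30 counts in every lane, 0.90 ± 0.18, from 5.45% and 5.51% of counts in alcohol lanes, against 2.44% and 2.01% in control lanes.

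**Figure D4:**
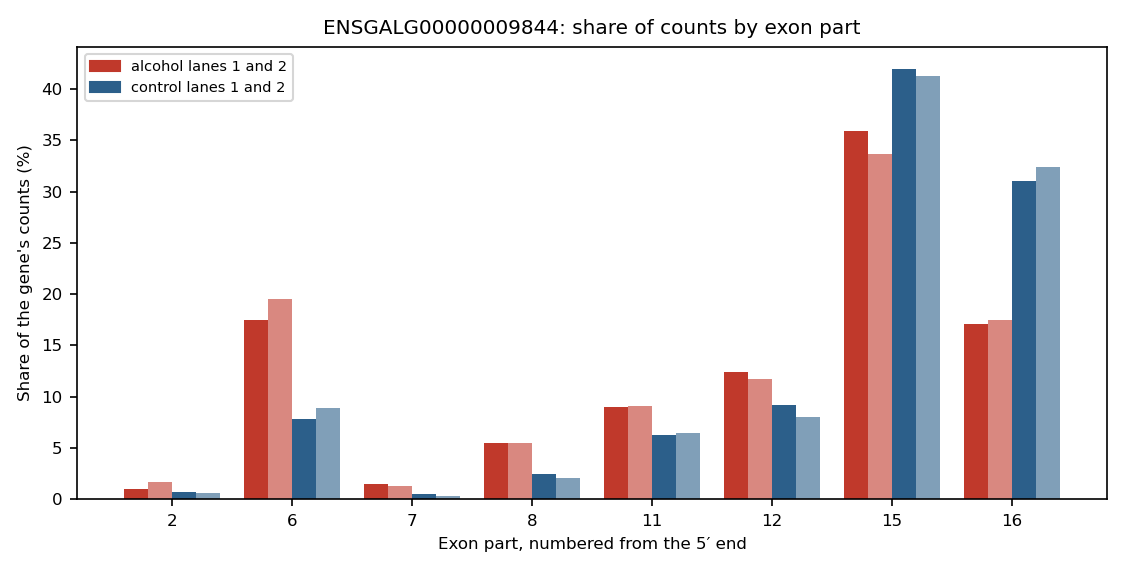
Share of the counts of ENSGALG00000009844, in percent, held by each of its 8 tested exon parts in each lane, with parts numbered from the 5′ end. Alcohol lanes are higher at parts 2 to 12, such as 17.5% and 19.6% against 7.84% and 8.85% at part 6, and lower at parts 15 and 16.

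ENSGALG00000000302, the gene with the lowest abundance difference, had 3 listed parts. Part 33, chromosome 26 from 804196 to 804391, held 63.7% of the gene's counts in each alcohol lane, against 75.9% and 74.8% in control lanes. Upstream, part 23 held 7.98% and 8.01% in alcohol lanes, against 4.88% and 4.78% in control lanes. The last part, 35, was not listed and held 12.2% and 10.7% in alcohol lanes, against 9.02% and 9.61% in control lanes, so the share was not lower all the way to the 3′ end.

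The contraction gene on chromosome 25 had the most listed parts, 10. Of these, 9 had higher usage, from 0.37 to 1.73, and lay in parts 15 to 24 from the 5′ end. Part 27, next to last, held 51.0% of the gene's counts and had a usage difference of -0.12 ± 0.12. Part 23, from 2108073 to 2108142, had 1.02 and 1.57 CPM in alcohol lanes, against 0.39 and 0.23 CPM in control lanes. These rest on counts of 17 and 29 in alcohol lanes, against 7 and 4 in control lanes. The mean CPM of each of the 9 parts in alcohol lanes was thus at or above that in control lanes, while the gene as a whole was lower. The adrenergic gene on chromosome 26 from 5209970 to 5248800 had 7 listed parts, 6 of them with higher usage and each under 4% of the gene, and its last part, at 89.3% of counts, had a usage difference of -0.04 ± 0.13. The adrenergic gene on chromosome 3 from 21979873 to 22019527 had 6 listed parts in the same arrangement, with 91.4% of counts in the last.

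The MAPK genes had 29 listed parts, 13 with higher and 16 with lower usage, and 8 of the 29 were the last part of their gene. On chromosome 18, the gene from 10279329 to 10388753 had a usage difference of -0.15 in its last part and 0.62 to 1.08 in its 3 other listed parts. Over all 36 genes, 4 of the 5 parts with lower usage at the threshold were in MAPK genes, which held 235 of the 431 tested parts. All of those 4 lay in stretches 1 to 4, and they included parts 18 and 38 of ENSGALG00000003396 and part 11 of ENSGALG00000016781. In ENSGALG00000003396, part 18 from the 5′ end, chromosome 11 from 3515470 to 3515660, had 0.96 and 0.86 CPM in alcohol lanes, against 1.46 and 1.86 CPM in control lanes, a usage difference of -1.08 ± 0.25. Part 38, from 3508257 to 3508497, had 4.99 and 3.46 CPM in alcohol lanes, against 4.84 and 4.63 CPM in control lanes, a usage difference of -0.60 ± 0.18. Part 41, from 3462896 to 3464027, had 7.27 and 7.62 CPM in alcohol lanes, against 2.19 and 2.20 CPM in control lanes, a usage difference of 0.74 ± 0.19. The higher abundance of this gene lay mainly in parts 41 and 48, and part 48 was not listed, with 11.7 and 14.3 CPM in alcohol lanes, against 6.75 and 6.61 CPM in control lanes.

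**Figure D5:**
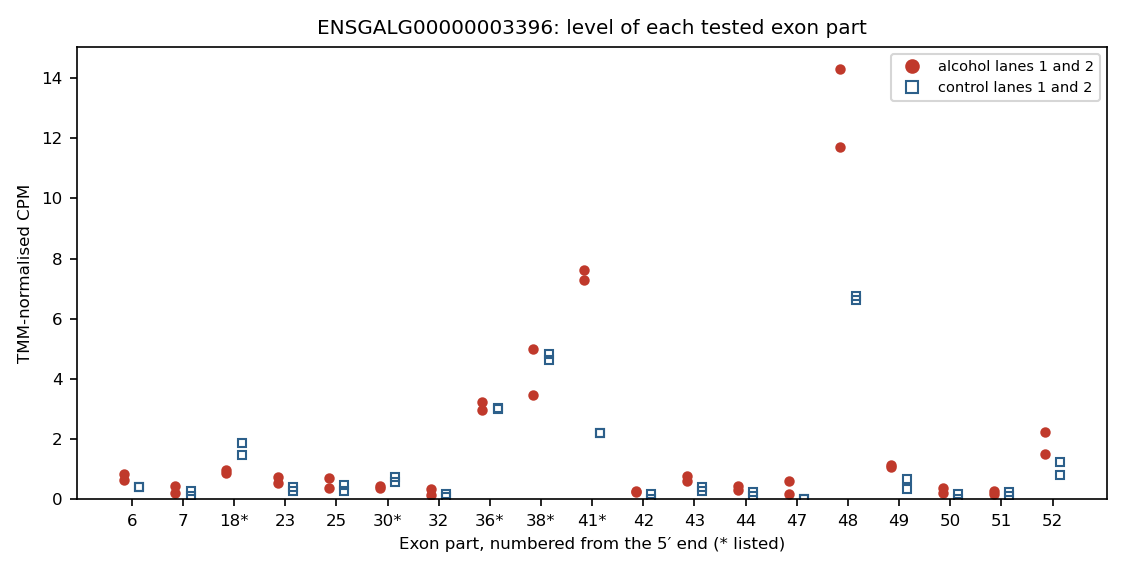
Level of each of the 19 tested exon parts of ENSGALG00000003396 in each lane, in TMM-normalised CPM, with parts numbered from the 5′ end and listed parts starred. Alcohol lanes stand above control lanes at part 41, 7.27 and 7.62 against 2.19 and 2.20, and below them at part 18.

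In ENSGALG00000016781, part 11, chromosome 1 from 133756934 to 133757144, had the lowest usage difference among listed parts with at least 30 counts in every lane in genes not already named. It had 57 and 70 counts in alcohol lanes, against 94 and 80 in control lanes, a usage difference of -0.53 ± 0.17, and it did not pass the threshold without control replicate 1, with a filter of at least 1 count, or in the DEXSeq-type model with the control lanes summed. The other listed part of this gene, part 24, went the other way, at 1.11 ± 0.34, from 17 and 21 counts in alcohol lanes, against 7 and 3 in control lanes. The counts of part 24 are small in every lane. Of the 5 ErbB listed parts, 2 passed the threshold, beside 36.9% of the listed parts of the pathway table's other genes. Both ErbB parts belonged to the chromosome 4 gene, which has 14 parts. Its part 5 had 95 and 109 counts in alcohol lanes, against 41 and 54 in control lanes, a usage difference of 0.67 ± 0.19, and its part 7 had 46 and 67, against 31 and 16 in control lanes, with 0.78 ± 0.22.

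In 16 of the 36 genes the listed parts included some with higher and some with lower usage, in 8 all were higher, and in 12 all were lower, and 18 genes had a single listed part. The study's adjusted p-values were not used here, so parts near 0.1 are given from the DEXSeq-type model with 4 lanes as separate libraries. In that fit 28 of the 89 listed parts and 0 of the 342 others lay under 0.1, so its threshold is not that of the study's own test. Most listed parts thus did not lie under 0.1 in it, and it cannot tell which part is nearest the edge of the rule. Among the 28 listed parts under 0.1, the closest to it was part 11 of ENSGALG00000016781. Its difference was -0.84 in that model, on a log2 and not a natural-log scale. That model also compares a part with the other parts of its gene, and not with the gene as a whole. Among the 342 parts not listed, the closest was in the chromosome 8 MAPK gene, with 7 and 9 counts in alcohol lanes, against 0 and 2 in control lanes.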

How the data were processed

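The deposited counts are fragments per exon part, made by the authors with Bowtie2 on Galgal5 and featureCounts 1.5.2, both mates mapped, strand ignored. The header shows no option to count fragments that touch several parts, and Bowtie2 does not split reads at junctions, so short parts can be undercounted, and overlapping genes cannot be told apart by strand. The authors' second table was used for its pathway labels only. Its normalized counts, usage coefficients and fold changes were not used.

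Gene counts are sums over exon parts. Features with at least 10 counts were tested with edgeR 4.0.16 (quasi-likelihood, TMM; diffSpliceDGE for usage) in R 4.3.3, Benjamini-Hochberg adjusted over all features. Each SE is the absolute difference divided by the square root of the test's F statistic, and is not a separately fitted standard error. DESeq2 1.42.0 served as an alternative, and scripts were tested on simulated data. The samples are not stated to be separate cultures, so the spread may be technical, and the control spread is assumed to match the alcohol spread.

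Members and lists were chosen with earlier results of these data known. Identifiers printed are the genes with the highest and lowest abundance difference (at least 100 counts in every lane, groups not overlapping) and those of the listed parts with the highest and lowest usage difference (at least 30 counts in every lane), without combined identifiers or repeats. Other loci were chosen after their values were seen. None of the 36 identifiers matched the gene reference used here.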

Additional observations from a re-analysis of the deposited data

How the results depend on the processing

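Abundance calls among the 36 genes numbered 13, and 23 with library-size scaling, 21 with the 4 lanes as libraries and 8 with DESeq2's Wald test, all 8 being among the 13. Without a control lane they were 11 to 12. Usage calls numbered 31, and 66 with the 4 lanes as libraries, 5 with the DEXSeq-type model, and 17 without either control lane. That model with 4 lanes as libraries, an alternative chosen after seeing the data, gave 28, of which 18 were shared. The median usage difference of listed parts, 0.45, was 0.24 relative to all parts in the same stretch, 0.31 with 1 median per gene, and 0.40 to 0.43 without a lane. The median abundance difference, 0.03, was 0.39 with library-size scaling, -0.00064 without combined identifiers, and -0.0083 to 0.048 without a lane, so its sign is not fixed. For contraction genes, -0.41 was -0.059 with library-size scaling. The causes of these shifts were not tested, apart from the filters and samples that differ by construction. No listed part, and none of the 4 identifiers printed, changed direction under the alternatives run. They were chosen by this comparison in the same lanes, so a kept direction is a description and not independent evidence. Leaving out an alcohol lane gave values only. No paired analysis was possible because the sample numbers name lanes and the control lanes count as 1 sample. Depth limits the parts with few counts: 3 counts in a lane correspond to 0.16 to 0.18 CPM.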
